A study of Bos taurus with 18 samples.

Results

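Low-methylated CpGs were the 2109 of 31500 tested CpG positions (6.70%) whose M-value, averaged over all 18 RRBS libraries of EBTr cells, lay above -3 and below -1. The M-value puts methylated over unmethylated reads on a log2 scale, so these bounds correspond to methylation levels of 11.1% and 33.3%. The CpGs were chosen by these measured values, which are given as a description. The other classes by the same mean were 444 unmethylated CpGs (-3 or lower), 8716 half-methylated CpGs (-1 to 1), 15212 in an upper class (above 1 and up to 3) and 5019 highly methylated CpGs (above 3).

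EBTr is a fibroblast line from bovine embryonic trachea, and all libraries came from this 1 line. Cells were grown in Eagle's minimum essential medium with 10% fetal bovine serum and glucose at 4.5 g/L for High cells, while Low cells had 1 g/L. The epigenetic modifiers (EM) were folate, choline, vitamin B12 and methionine. Control media held 0.001 g/L folate, 0.001 g/L choline, 4 µg/L vitamin B12 and 0.015 g/L methionine, and the labels give 2.5 or 5 times these amounts in the supplemented media (×2.5 and ×5). The study's methods give a smaller increase of methionine, the same in every supplemented medium. Each of the 6 treatments had 3 libraries. The study describes tubes of frozen cells, and nothing in the sources used here says that they came from separate cultures, so p-values may measure technical spread alone. The files hold no markers by which the identity of the cells could be checked.

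In mammalian cells, most CpGs outside CpG islands are methylated, and active promoters and islands are mostly free of methylation. A CpG is methylated or not on each DNA molecule, so a low level in a cell population means that a minority of the molecules that were read carried the mark. Maintenance methylation copies the mark to the new strand after replication, which is why the cytosines on both strands of a CpG usually have similar levels. Folate, choline, vitamin B12 and methionine feed one-carbon metabolism, which makes S-adenosylmethionine, the methyl donor of the DNA methyltransferases.

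The median of the mean levels was 24.3%. Of the 2109 CpGs, 660 had a mean M-value below -2, a level of 20.0%, and 1449 had one of -2 or above. The class had no gap at its edges. Just inside the lower bound was chr8:11950831 (mean M-value -2.9981, 8.24 to 17.9% in the 18 libraries), near ACO1, and just outside it was chr6:6632586 (-3.0031, 3.70 to 30%). Just inside the upper bound was chr1:124938725 (-1.0005, 20.5 to 40.6%), and just outside it was chr15:26602314 (-0.9978, 25 to 44.6%), near CADM1. Single libraries crossed the bounds often. Only 424 CpGs (20.1%) lay inside them in all 18 libraries, the median CpG in 15 and the least stable in 5. All 6 treatment means lay inside for 1410 CpGs, and 62 exceeded a level of 50% in at least 1 library. Between libraries of 1 treatment the SD was 4.88 percentage points at the median low-methylated CpG, compared with 6.01 for half-methylated, 4.65 for upper, 2.55 for highly methylated and 2.35 for unmethylated CpGs. On the log2 scale of the M-value this SD was 0.42, compared with 0.36 for half-methylated, 0.44 for upper, 0.49 for highly methylated and 0.59 for unmethylated CpGs, so the order of the classes depended on the scale. The range between the 6 treatment means was 7.34 points at the median CpG and 14.6 points at the 95th percentile. The study gives an average number of reads per sample and describes a filter on low counts. The depth of each CpG in each library is unknown from these values, so no counting error can be given for any level.

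The level of the whole class was close to the same in all treatments. Its median over the 2109 CpGs was 24.6% ± 0.359 (SD, n = 3) in Low Control, 23.7% ± 0.702 in Low ×2.5 and 23.4% ± 0.198 in Low ×5. In High Control it was 23.7% ± 0.294, in High ×2.5 24.4% ± 0.597 and in High ×5 24.1% ± 0.966. The libraries ran from 22.9 to 25%. Those of Low Control (24.3, 24.5 and 25%) all lay above those of Low ×5 (23.6, 23.2 and 23.4%), whereas High Control (23.7, 23.9 and 23.3%) and High ×5 (25, 24.2 and 23.1%) overlapped. The width of the M-values over all 31500 CpGs moved with these medians. Its SD was 1.58 to 1.83 per library, with the smallest values in Low Control replicates 3 (1.58) and 2 (1.63), High ×5 replicate 2 (1.63) and High ×2.5 replicate 3 (1.65). In these 4 libraries unmethylated CpGs had medians of 7.60 to 10.0% and highly methylated CpGs of 89.5 to 90.8%, compared with 4.47 to 6.90% and 91.3 to 93.0% in the other 14. What part the narrower M-values have in differences of the low-methylated CpGs was not tested.

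**Figure D1:**
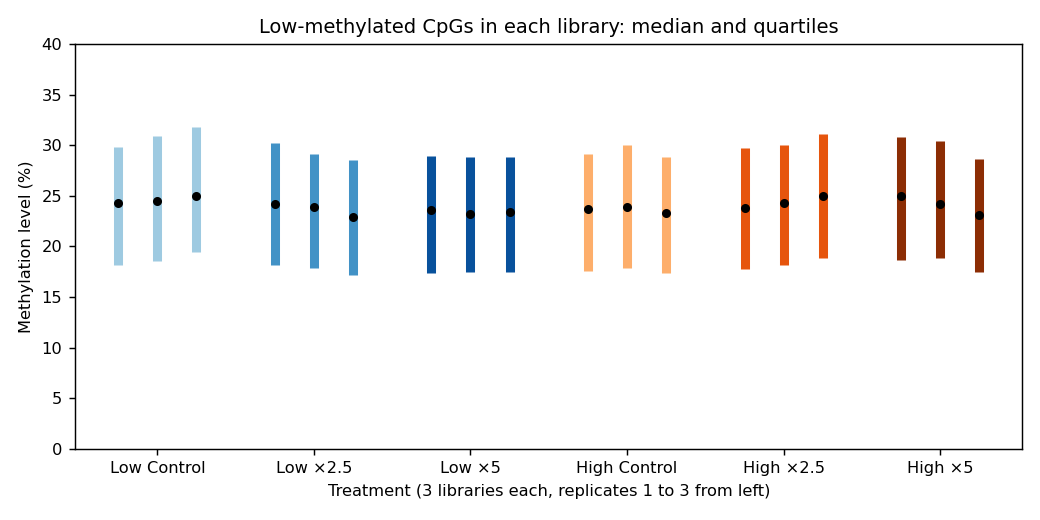
Methylation level in percent of the 2109 low-methylated CpGs (vertical axis) in each of the 18 libraries, 3 per treatment (horizontal axis). Bars span the quartiles over CpGs and points are medians, which lie between 22.9 and 25%, with Low Control above Low ×5.

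Low-methylated CpGs were concentrated in a small number of places. Positions are given in bosTau8, the build of the files. Chromosome 3 held 353 of them, 12.7% of its tested CpGs, and chromosome 27 held 242 (10.8%). Chromosome 8, with more tested CpGs than either (3578), held 189 (5.28%). Tested CpGs were joined into 612 regions wherever gaps were at most 10 kb. Of these, 376 held at least 1 low-methylated CpG and 126 held exactly 1, while 33 regions held 50% of the class. The 5 regions with the most held 495 (23.5%), although they had 5.37% of the tested CpGs. Outside these 5 regions 5.41% of tested CpGs were low-methylated.

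The largest group was in chr3:8102321-8111849, where 273 of 625 tested CpGs (43.7%) were low-methylated, 12.9% of the class. The study's tables assign CpGs here to CFAP126, which encodes a cilia- and flagella-associated protein. Such an assignment names the nearest transcription start site at any distance, and whether a CpG lies in an exon, intron or promoter was not determined here. The low-methylated CpGs lay toward both ends of the region. The first 1 kb held 63 of 124 tested CpGs and the last 2 bins of 1 kb held 99 of 139 and 68 of 124. Between them, from 3 to 4 kb, none of 42 tested CpGs was low-methylated and the median level was 84.8%. By treatment, the mean level of the 273 CpGs was 24.9% ± 1.63 in Low Control, 22.5% ± 0.560 in Low ×2.5 and 22.8% ± 0.563 in Low ×5. In High Control it was 22.9% ± 0.993, in High ×2.5 24.3% ± 1.28 and in High ×5 23.6% ± 0.815. Low Control libraries (23.4 to 26.6%) lay above Low ×2.5 (22.0 to 23.1%), and overlapped Low ×5 (22.4 to 23.5%).

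**Figure D2:**
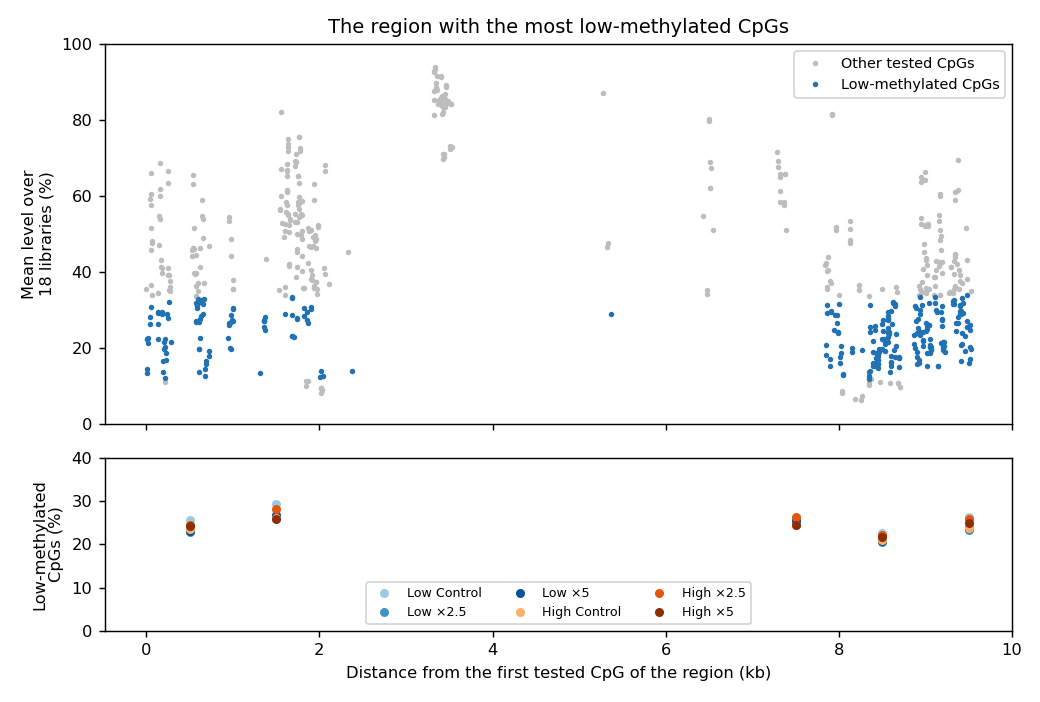
Upper panel, mean level over 18 libraries in percent of each tested CpG of the region on chromosome 3 against its distance in kb from the first tested CpG, with 273 low-methylated CpGs in blue and the other tested CpGs in grey. Lower panel, treatment means of the low-methylated CpGs in bins of 1 kb with at least 10 of them, where the 6 treatments nearly coincide. No low-methylated CpG lies from 3 to 4 kb.

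The second region, chr27:23694401-23711948, held 83 of 136 tested CpGs, assigned to ERI1, an exoribonuclease that trims histone mRNA. No tested CpG there was in the upper or the highly methylated class. Its low-methylated CpGs had mean levels of 25.4% ± 1.67 in Low Control, 23.3% ± 0.924 in Low ×2.5, 23.5% ± 0.686 in Low ×5, 23.2% ± 0.00566 in High Control, 24.7% ± 0.539 in High ×2.5 and 25.2% ± 2.13 in High ×5. CpGs of a pair of regions on chromosome 25 were assigned to ribosomal RNA genes. In chr25:32456283-32472736, 52 of 152 were low-methylated, with CpGs assigned to RN45S, the precursor of ribosomal RNA. In chr25:32361997-32377148, 39 of 126 were low-methylated, with CpGs assigned to RN18S1, the 18S ribosomal RNA. Ribosomal RNA genes exist in many near-identical copies, so reads of other copies may have been counted there and these levels are uncertain. The remaining region, chr27:28611641-28816523 near RNF122, a RING finger protein, and TTI2, a factor in the assembly of PIKK kinases, was of another kind. There 48 of 651 CpGs were low-methylated (7.37%) and the other CpGs had a median level of 81.0%.

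Other dense groups were named after their values were seen. In chr6:92540895-92540976, 23 of 24 tested CpGs were low-methylated and the last was unmethylated. Most of them were assigned to MIR2887-2, a microRNA gene. In chr2:83185677-83186060, 39 of 52 were low-methylated, as many as in the RN18S1 region, with 26 CpGs assigned to SLC39A10, a zinc transporter. In 15 regions with at least 3 tested CpGs, over 50% of the CpGs were low-methylated.

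Runs of consecutive low-methylated CpGs, with gaps under 100 bp and no other tested CpG between them, were mostly short. Positions were counted singly, so both strands of a CpG, 1 bp apart, could count in a run. There were 1248 runs, of which 851 held 1 CpG, 40.4% of the class. Another 13 runs held 10 or more and together 201 CpGs (9.53%). The longest run, 22 CpGs over 90 bp at chr3:8110820-8110909 in the CFAP126 region, had mean levels of 13.6 to 29.4%. On its right side the next tested position had 10.8%. That position was 1 bp away and may be the other strand of the last CpG of the run. On the left, 4 bp away, the level was 35.5%. A run of 21 CpGs over 91 bp at chr2:83185970-83186060 (SLC39A10) had levels of 15 to 33.0%. A run of 19 over 83 bp at chr4:103653938-103654020, assigned to UBN2, a chromatin protein of the ubinuclein family, had 15.2 to 30.6%. Each run ended within 6 bp of a CpG of another class on at least 1 side. In the run on chromosome 3 the treatment means ran from 22.4% ± 0.625 (Low ×2.5) to 25.1% ± 2.27 (Low Control), and in the run on chromosome 2 from 21.7% ± 0.637 (High ×5) to 23.7% ± 1.66 (Low Control). In the UBN2 run they ran from 19.7% ± 2.45 (High ×5) to 24.2% ± 4.23 (High ×2.5). In each run the gap between the lowest and the highest treatment was only slightly above the larger of their SDs.

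Around low-methylated CpGs the level rose over short distances. The neighbours at 1 bp had a median level of 24.2%, those at 2 to 10 bp 30.3% and those at 11 to 25 bp 34.1%. Those at 26 to 50 bp had 50% and those at 51 to 100 bp 64.1%. A neighbour at 1 bp may be the cytosine on the other strand of the same CpG. For all tested CpGs the medians at the same distances ran from 76.1% at 1 bp over 81.3% at 2 to 10 bp to 71.8% at 51 to 100 bp. Beyond 100 bp the neighbours of low-methylated CpGs again had lower levels, 57.0% up to 250 bp and 46.2% between 500 and 1000 bp. This second fall was smaller without 1 region. With chr3:8102321-8111849 left out, an alternative chosen after seeing the data, the level was 68.2% at 51 to 100 bp and then 63.5% and 64.5%, whereas those at 1 bp (24.4%) and 2 to 10 bp (32.1%) hardly moved. Over all neighbours within 100 bp, the median was 51.7% (quartiles 34.1 and 66.9%) for low-methylated CpGs and 57.2% without that region, compared with 71.4% for all, 64.5% for half-methylated and 56.9% for unmethylated CpGs. Within 100 bp, 1373 low-methylated CpGs (65.1%, or 60% without the region) had another low-methylated position, compared with 25.1% of all CpGs. These shares include the other strand of the same CpG, and 957 low-methylated CpGs had a tested neighbour at 1 bp. Among neighbours at 2 to 10 bp, a mean share of 53.4% was low-methylated, compared with 4.50% around all CpGs. Only 35 low-methylated CpGs had no tested neighbour within 100 bp. Neighbours within 100 bp can share reads, and the class was chosen on the same values, so these levels are a description.

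**Figure D3:**
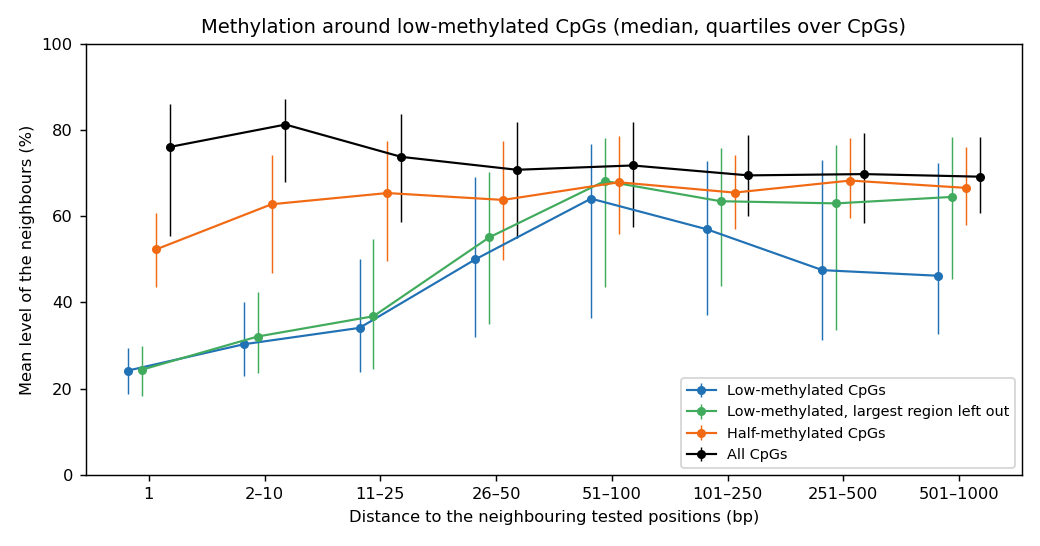
Mean level in percent of the tested positions that neighbour a CpG (vertical axis) by their distance in bp (horizontal axis), as medians with quartiles over CpGs. The curve of low-methylated CpGs starts at 24.2% at 1 bp and reaches 64.1% at 51 to 100 bp, and the curve without the largest region goes from 68.2% there to 64.5% between 500 and 1000 bp.

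Positions in the table are single cytosines, and 5637 isolated pairs lay 1 bp apart, the distance between the cytosines on the 2 strands of a CpG. The file gives no strand, so the pairing was read from the distance. In 359 of the 469 pairs with a low-methylated position (76.5%) both positions were low-methylated. Put per position, 86.7% of 828 paired low-methylated positions had a low-methylated partner, while 7.34% of all paired positions were low-methylated. Where only 1 was low-methylated (110 pairs), the partner was half-methylated in 77, unmethylated in 18, in the upper class in 10 and highly methylated in 5. The difference in mean M-value between the positions of a pair was 0.16 at the median, as over all pairs, but 1.59 at the 95th percentile, compared with 0.91 over all pairs. A few pairs were far apart in every library, and these examples were picked after their values were seen. At chr27:26381817 the level was 21.5 to 33.7% (median 28.4%), and at chr27:26381816 it was 87.9 to 97.1% (median 94.2%). Near CLINT1, a clathrin-interacting protein of vesicle transport, chr7:71935691 had 17.4 to 45.0% and its partner 91.0 to 97.3%. Near SFRP1, a secreted antagonist of Wnt signalling, chr27:35839193 had 4.84 to 23.8% and its partner 50 to 72.7%. In each of these pairs the partner was higher in all 18 libraries. A sequence variant at such a site was not tested for here.

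The 10 contrasts of the study were tested with limma on the M-values of all 31500 CpGs. Calls were made below an unadjusted p-value of 0.01, methylated where the treatment named first was higher and demethylated where it was lower. After Benjamini-Hochberg adjustment over all CpGs no low-methylated CpG reached an adjusted p-value under 0.05 in any of the 10 contrasts, in the F-test of the 6 treatments or in the glucose by EM interactions, and the smallest adjusted p was 0.229 in limma. At an unadjusted p-value under 0.05, 46 to 184 low-methylated CpGs remained per contrast, 2.18 to 8.72% of the class, compared with 2.39 to 8.57% of all CpGs. Of the 2109 CpGs, 201 (9.53%) were called in at least 1 contrast, and 9.68% of all CpGs were. The F-test called 21, that is 0.996% of the class and 1.44% of all CpGs. Several contrasts share a treatment, so their counts are not independent.

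In Low cells with EM, more low-methylated CpGs were demethylated than methylated, except that at ×2.5 the split turned to 16 methylated and 14 demethylated with libraries scaled to an equal SD, and to 11 and 9 without replicate 3. For Low ×5 vs. Low Control, 38 were called (1.80% of the class, and 2.40% of all CpGs), 6 methylated and 32 demethylated, while 1.78% of all CpGs were methylated and 0.619% demethylated. For Low ×2.5 vs. Low Control, 38 were called, 8 methylated and 30 demethylated, compared with 2.0% of all CpGs, 1.53% methylated and 0.470% demethylated. The median difference over the class was -0.11 and -0.10 on the log2 scale in these contrasts, and 0.10 over all CpGs in both. Unmethylated CpGs moved further down (-0.75 and -0.59) and highly methylated CpGs moved up (0.31 and 0.26). The direction depended on the scaling between libraries. With each library centred on its median M-value, which moved the median of all CpGs from 0.10 to -0.06 and -0.05, 3 were methylated and 79 demethylated at ×5, and 2 and 67 at ×2.5. With libraries scaled to an equal SD the splits were 11 to 12 and 16 to 14, and with quantile normalization 11 to 18 and 15 to 20. The median differences over the class were -0.27 and -0.24 with centred libraries and 0.02 and 0.01 at equal SD. With quantile normalization they were -0.04 and -0.03. Low Control holds 2 of the 4 libraries with narrow M-values. Without these 4, a fit added after seeing the data in which Low Control keeps 1 library, assumed to vary like those of the other treatments, 17 (4 methylated, 13 demethylated) and 18 (6 and 12) were called. Leaving out replicate 2 of every treatment gave 22 calls for the ×5 contrast (7 methylated, 15 demethylated). Leaving out replicate 3 gave 16 (1 and 15) for ×5 and 20 (11 and 9) for ×2.5. Between Low ×5 and Low ×2.5, 10 were called, 2 methylated and 8 demethylated, compared with 0.371% of all CpGs, 0.229% methylated and 0.143% demethylated. This split was 4 to 3 without replicate 1, 3 to 3 without replicate 2 and 7 to 10 without the 4 libraries, so its direction rested on single replicates.

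In High cells with EM, more low-methylated CpGs were methylated than demethylated relative to High Control, except that at ×5 the split turned to 9 methylated and 12 demethylated at equal SD. For High ×5 vs. High Control, 16 low-methylated CpGs were called (0.759% of the class, and 1.37% of all CpGs), 11 methylated and 5 demethylated. Over all CpGs, 0.292% were methylated and 1.08% demethylated. For High ×2.5 vs. High Control, 22 were called, 16 methylated and 6 demethylated, compared with 1.02% of all CpGs, 0.343% methylated and 0.676% demethylated. The median differences over the class were 0.05 and 0.07, and over all CpGs -0.08 and -0.02. The splits became 15 to 1 and 17 to 3 with centred libraries, 9 to 12 and 11 to 9 at equal SD, and 10 to 7 and 12 to 9 with quantile normalization. The medians over the class became 0.14 and 0.11 with centred libraries and -0.02 and 0.02 at equal SD. With quantile normalization they were 0.03 and 0.02. Between High ×5 and High ×2.5, 26 were called, 7 methylated and 19 demethylated, compared with 1.47% of all CpGs, 0.454% methylated and 1.02% demethylated. That split was 11 to 11 with centred libraries and turned to 17 methylated and 12 demethylated without replicate 3. Without the 4 narrow libraries the contrasts gave 25 calls (15 and 10), 29 (18 and 11) and 32 (15 and 17). High ×5 vs. High Control gave 31 (22 and 9) without replicate 3.

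Glucose was compared at each EM level. For High Control vs. Low Control, 43 were called (2.04% of the class, and 1.92% of all CpGs), 6 methylated and 37 demethylated, while over all CpGs 1.38% were methylated and 0.543% demethylated. For High ×2.5 vs. Low ×2.5, 24 were called, 19 methylated and 5 demethylated, compared with 1.01% of all CpGs, 0.308% methylated and 0.698% demethylated. For High ×5 vs. Low ×5, 17 were called, 11 methylated and 6 demethylated, compared with 1.61%, 0.305% and 1.30% of all CpGs. The High ×5 vs. Low Control contrast had 40 calls, 15 methylated and 25 demethylated, compared with 1.75%, 0.940% and 0.813%. The split without EM was thus opposite to the splits with EM, but the ×5 split turned at equal SD and without replicate 2, and the ×2.5 split turned without replicate 3 and without the 4 narrow libraries. At equal SD the 4 splits were 11 to 24, 15 to 7, 6 to 14 and 21 to 29, and with quantile normalization 12 to 26, 13 to 6, 8 to 7 and 24 to 27. With centred libraries they were 3 to 56, 23 to 1, 30 to 1 and 11 to 26. Without the 4 narrow libraries they were 11 to 16, 12 to 15, 17 to 10 and 13 to 16. Leaving out replicate 2 gave splits of 4 to 12 between the Controls and 4 to 7 at ×5. Leaving out replicate 3 gave 7 to 15 between the Controls, 6 to 12 at ×2.5, 20 to 8 at ×5 and 21 to 16 for High ×5 vs. Low Control, which also turned.

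**Figure D4:**
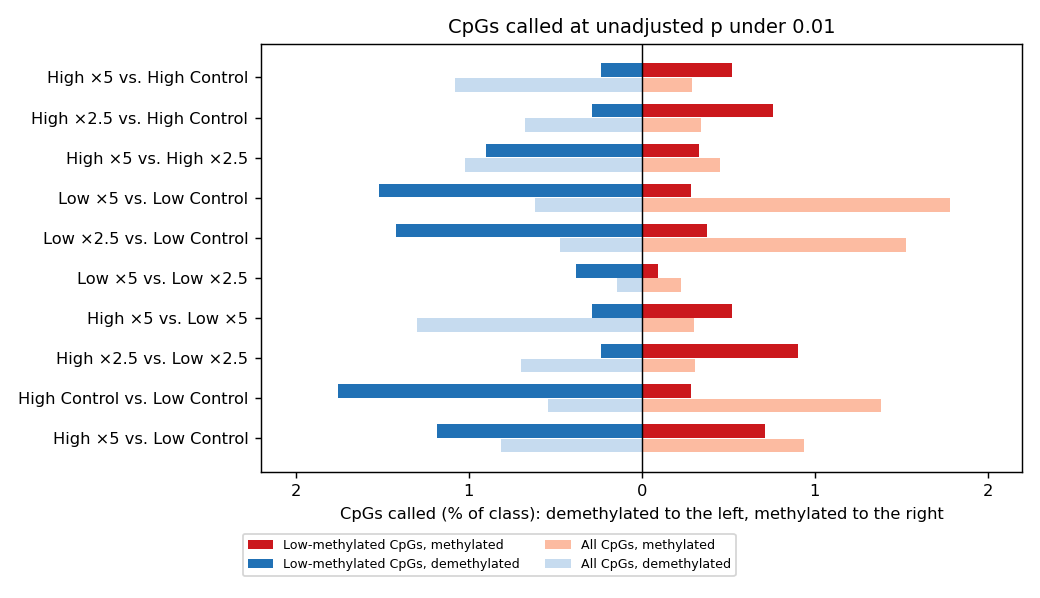
Share of CpGs called at an unadjusted p-value under 0.01 in each of the 10 contrasts, methylated to the right and demethylated to the left, in percent of the 2109 low-methylated CpGs (dark bars) and of all 31500 CpGs (pale bars). Low-methylated CpGs lean to demethylated against Low Control, where all CpGs lean to methylated, although Low ×2.5 vs. Low Control turns to 16 methylated and 14 demethylated at equal SD and to 11 and 9 without replicate 3, and High ×5 vs. Low Control turns to 21 and 16 without replicate 3.

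The interactions tested whether the difference between supplemented and Control cells was the same at both glucose levels. At ×2.5, 45 low-methylated CpGs were called, 40 with a more positive difference in High cells and 5 with a more negative one, and 1.85% of all CpGs were called. At ×5, 38 were called, 35 and 3, and 2.79% of all CpGs were. Called or not, 63.0% of the class had a positive interaction at ×2.5 and 62.6% at ×5, compared with 39.7% and 35.5% of all CpGs. The median interaction was 0.15 and 0.16 over the class, and -0.12 and -0.18 over all CpGs. For unmethylated CpGs it was 0.84 and 1.01, and for highly methylated CpGs -0.36 and -0.51. The splits of the calls thus went with a shift of the whole class. With equal SD the splits were 27 to 8 and 13 to 12, with quantile normalization 28 to 7 and 18 to 8, and with centred libraries 62 to 1 and 82 to 1. The median interactions over the class were then -0.01 and -0.04 at equal SD. They were 0.04 and 0.07 with quantile normalization, and 0.34 and 0.41 with centred libraries. Without the 4 narrow libraries they were 16 to 5 and 15 to 5. Without replicate 2 they were 24 to 4 and 11 to 2. Without replicate 3 the split at ×2.5 turned to 5 and 6, so the excess of positive interactions at ×2.5 rested on that replicate number.

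Among the low-methylated CpGs, 16 were named by the smallest p-value of a test, so their statistics are the most extreme of many. The levels of those with the 5 smallest F-test p-values (0.000473 to 0.000946 unadjusted, adjusted p = 0.630 in limma) and of the strongest interaction at ×5 follow in all libraries.

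The CpG at chr13:886583, with no gene assigned, had levels of 9.26, 11.5 and 7.27% in High Control, 20.0, 19 and 21.4% in High ×2.5 and 15, 13.0 and 18.4% in High ×5. Its Low libraries had 10.8, 13.3 and 13.3% in Control, 10.7, 11.8 and 11.3% at ×2.5 and 9.37, 8.70 and 13.2% at ×5. Both supplemented groups lay above High Control without overlap, whereas the Low groups overlapped. The means of High Control (9.36%) and Low ×5 (10.4%) were below the lower bound of the class. The highest mean was that of High ×2.5 (20.2%). Its levels raised the mean by which this CpG entered the class, and they also make up the differences given here. High ×2.5 was higher than High Control by 1.31 (SE 0.24) on the log2 scale and higher than Low ×2.5 by 0.99 (SE 0.24), with adjusted p = 0.693 and 0.945 in limma. Without replicate 1 the latter difference was 0.96 with an unadjusted p of 0.0205 in limma. None of the 7 tested CpGs within 100 bp was called in either contrast.

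Near SELENOH, a nucleolar selenoprotein, chr15:82597348 had 21.7, 40 and 37.5% in Low Control. All other libraries were between 11.6 and 23.1%. They were 13.3, 11.6 and 13.5% in Low ×2.5, 19.5, 14.4 and 17.8% in Low ×5, 19.3, 15.4 and 15.2% in High Control, 14.3, 17.9 and 17.6% in High ×2.5 and 23.1, 20.8 and 17.2% in High ×5. Only Low Control replicates 2 and 3 stood clearly above the rest, and these are also libraries with narrow M-values. The difference of Low ×2.5 from Low Control was -1.71 (SE 0.29, adjusted p = 0.378, limma). Without the 4 narrow libraries it was -0.92 with an unadjusted p of 0.0144.

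At chr8:56802488, near TLE4, a corepressor of the Groucho family, High cells had lower levels than Low cells at each EM level. Low Control had 31.0, 31.0 and 36.0%, Low ×2.5 31.0, 24.0 and 25%, and Low ×5 27.8, 28.0 and 29.6%. High Control had 25.5, 25 and 19.2%, High ×2.5 18.5, 17.2 and 20.0%, and High ×5 15.2, 22.2 and 18.8%. The Low and High libraries did not overlap at any EM level. High ×5 was below Low ×5 by 0.80 (SE 0.22, adjusted p = 0.543, limma), a call that was lost in 4 of 11 alternative settings. Compared with Low Control, which differs in both glucose and EM, High ×5 was lower by 1.09 (SE 0.22, adjusted p = 0.437, limma). The position 1 bp away, also low-methylated, had treatment means of 16.3 to 22.1%, and its difference in the same contrast was -0.26 (SE 0.23, adjusted p = 0.837, limma).

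Near GHITM, a protein of the inner mitochondrial membrane, chr28:39345370 had its highest levels in Low Control, 19.5, 27.8 and 23.1%. High Control had 5.77, 12.1 and 7.41%, a difference of -1.79 (SE 0.34, adjusted p = 0.367, limma). Low ×2.5 had 11.4, 9.33 and 11.3%, Low ×5 11.4, 22.0 and 15.8%, High ×2.5 9.09, 7.5 and 12%, and High ×5 8.0, 12.5 and 11.6%. With a mean of 8.42% in High Control this CpG was below the lower bound of the class there. It was also below it in Low ×2.5 (10.7%), High ×2.5 (9.53%) and High ×5 (10.7%). Only Low Control (23.5%) and Low ×5 (16.4%) lay inside. The CpG thus entered the class through these groups, and the high Low Control levels also make up the difference given here. The 2 tested CpGs within 100 bp had a mean level of 83.7%.

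At chr14:572438, in the span assigned to the open reading frame C14H8orf33, ×5 cells had higher levels at both glucose levels. Low ×5 had 42.3, 41.2 and 40.4% and High ×5 42.9, 44.0 and 41%, above the upper bound of the class in every library. Low Control had 20.8, 33.3 and 12.5%, Low ×2.5 36.4, 25.5 and 31.2%, High Control 23.7, 23.9 and 24.6%, and High ×2.5 24.7, 27.9 and 25%. The ×5 libraries did not overlap any other library. Low ×5 exceeded Low Control by 1.41 (SE 0.32) and High ×5 exceeded High ×2.5 by 1.09 (SE 0.32), with adjusted p = 0.313 and 0.643 in limma. Without replicate 1 the differences were 1.37 and 1.04, with unadjusted p of 0.0164 and 0.0535 in limma, and without replicate 3 they were 0.98 and 1.11, with unadjusted p of 0.0191 and 0.0105 in limma. The 3 tested CpGs within 100 bp had a mean level of 79.5%, and none was called.

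The smallest p-value of the interaction at ×5 was at chr6:92540907 in the MIR2887-2 region. Low Control had 11.4, 18.7 and 18.7% and Low ×5 9.33, 7.55 and 11.6%, while High Control had 7.5, 6.82 and 8.47% and High ×5 14.3, 21.4 and 11.1%. Low ×2.5 had 15, 9.09 and 6.67%, and High ×2.5 12.8, 12.1 and 15%. The level was thus lower with EM ×5 in Low cells, apart from an overlap of 1 library, and higher in High cells. The means of High Control (7.60%), Low ×5 (9.50%) and Low ×2.5 (10.3%) were below the lower bound of the class. This CpG thus entered the class through Low Control (16.3%), High ×2.5 (13.3%) and High ×5 (15.6%). The levels of Low Control and High ×5 also make up the interaction at ×5. The interaction was 2.0 (SE 0.49, adjusted p = 0.229, limma). All 23 other tested CpGs within 100 bp had an interaction of the same sign, and 4 of them were called, where 2.79% of all CpGs were called. They lie within 1 stretch of 82 bp and are not independent. Over the whole class, 62.6% of CpGs had a positive interaction at ×5. The mean level of the 23 CpGs was 16.5%, near the lower bound of the class. The median interaction at ×5 was 0.16 over the class and 1.01 over unmethylated CpGs, so the shared sign is not particular to this stretch. The partner position 1 bp away, which was unmethylated, had an interaction of 0.19 (SE 0.52). Without replicate 2 the interaction was 1.30 (unadjusted p = 0.0617, limma), and without the 4 narrow libraries 1.14 (unadjusted p = 0.0613, limma).

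**Figure D5:**
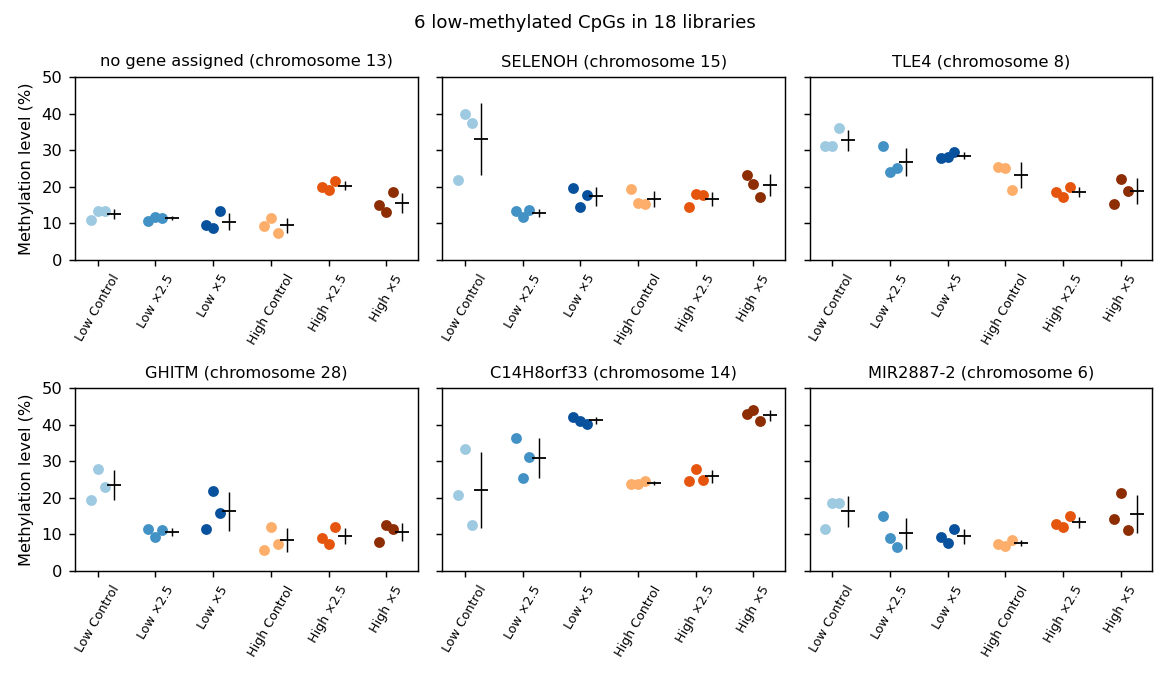
Methylation level in percent (vertical axis) of the 6 low-methylated CpGs described in all libraries, by treatment (horizontal axis, 3 libraries each as coloured points, with the mean ± SD in black). The ×5 points of C14H8orf33 lie between 40.4 and 44.0%, above all others there, and 2 Low Control points of SELENOH lie apart at 37.5 and 40%.

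Other named CpGs had similar sizes. Near CLINT1, chr7:71952567 had 35.3, 36.7 and 33.8% in High Control and 18.8, 18.5 and 21.7% in Low Control, a difference of 1.15 (SE 0.24, adjusted p = 0.367, limma). At chr3:8110823 in the CFAP126 run, Low ×5 (18.3, 29.5 and 40.5%) exceeded Low ×2.5 (10.0, 18.1 and 10.8%) by 1.48 (SE 0.43, adjusted p = 1.00, limma). None of its 42 tested neighbours within 100 bp was called, and without replicate 3 the difference was 0.97 (unadjusted p = 0.106, limma). The partner position 1 bp away, also low-methylated, had a difference of 0.37 (SE 0.30, unadjusted p = 0.231, limma) in this contrast. A second CpG assigned to C14H8orf33, chr14:552258, was lower in Low ×5 than in Low Control by 1.15 (SE 0.27, adjusted p = 0.317, limma), the opposite of chr14:572438. Without replicate 2 this difference was -0.85 (unadjusted p = 0.0315, limma), and without the 4 narrow libraries -0.73 (unadjusted p = 0.0832, limma). The partner of chr14:552258, 1 bp away and also low-methylated, had a difference of -0.10 (SE 0.33, adjusted p = 0.969, limma) between Low ×5 and Low Control. The remaining CpGs with the smallest p-value of a contrast were near LRRC71, PPP2R2A, BRINP1, PAK1, NUDT12 and SELENOH, and at chr8:61278356 with no gene assigned. In 19 of 20 named contrasts the libraries of both treatments did not overlap. This count follows from naming by the smallest p-value.

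Calls were compared between the strands of a CpG, which the choice of members did not use. Over the 10 contrasts, 90 calls were made in the 359 pairs whose positions were both low-methylated, counting a pair once per contrast. In 0 of these 90 were both positions called. The differences had the same sign in 54 (60%), and over all pairs in 807 of 1346 (60%), with both called in 12 (0.892%). Across the 359 pairs, Pearson's r between the differences of the positions ran from -0.03 to 0.12 in the 10 contrasts. Over all 5637 pairs it ran from 0.01 to 0.21. The levels of paired positions were close, but their differences between treatments hardly moved together. Pairs share libraries, and neighbouring pairs are not independent.

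Neighbouring CpGs were also averaged. Clusters of at least 3 tested CpGs with gaps under 100 bp numbered 2663, and 79 of them had a mean M-value between the bounds of the class. They held 960 tested CpGs, 561 of them low-methylated. In 4 clusters every CpG was low-methylated, and 5 held none because unmethylated and methylated CpGs averaged to such an M-value. At an unadjusted p-value under 0.01, 13 of the 79 (16.5%) were called in at least 1 contrast, compared with 12.1% of all clusters. These made 17 calls, 3 methylated and 14 demethylated. The split over all clusters and the splits under other scalings are not given here, so no direction is read from it. The number of clusters called was 9 at equal SD, 10 with quantile normalization and 23 with centred libraries. No cluster had an adjusted p-value under 0.05 in limma (smallest 0.109), 40 (50.6%) had an unadjusted p-value under 0.05 in some contrast, compared with 37.4% of all clusters, and the F-test called 0, compared with 1.54% of all clusters. The number called was 5 without replicate 2 and 5 without the 4 narrow libraries.

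The cluster with the smallest p-value was chr27:28521661-28521810 near TTI2, with 4 low-methylated CpGs of 8. Its mean level was 38.3, 39.2 and 36.9% in High ×5 and 32.4, 32.0 and 33.8% in Low ×5, a difference in mean M-value of 0.63 (SE 0.14, adjusted p = 0.312, limma). At chr2:6988897-6988967 near WDR75, a factor of ribosome biogenesis, all 3 CpGs were low-methylated. There Low ×5 had 21.1, 19.6 and 23.0% and Low Control 27.8, 29.3 and 28.0%, a difference of -0.55 (SE 0.13, adjusted p = 0.109, limma). Neither pair of treatments overlapped. The 3 others with the smallest p-values were also lower in Low ×5 than in Low Control. These were chr8:74595616-74595726, chr14:470738-471015 (C14H8orf33) and chr4:41483643-41483720 near GNAI1, a G protein subunit. The last held no low-methylated CpG, and its mean levels were 47.3 and 48.0%. The libraries of Low ×5 and Low Control overlapped there and at chr14:470738-471015, but not at chr8:74595616-74595726. At chr14:470738-471015 they had 22.8, 20.4 and 19.7% in Low ×5 and 22.0, 28.7 and 24.8% in Low Control.

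Of the 2109 CpGs, 1560 fell to 191 genes. CFAP126 had 262, C14H8orf33 107 of 1074 tested, ERI1 84 and RNF122 61. The following genes were named by the study from its own results. IL2, a T cell growth factor, had 16 of 331 tested, MAP2K6, a kinase that activates p38, 7 of 71, and SFRP1 6 of 130. The neuropeptide gene ADCYAP1 had 2 of 93 and ARRDC3, an arrestin domain gene, 1 of 127. PDGFA had none of 2, and for RAC1 no CpG was assigned. In MAP2K6, 2 of 7 were called in any contrast, and in SFRP1 1 of 6 and in IL2 1 of 16, where 9.68% of all CpGs were called. At chr19:61938240 (MAP2K6), High Control was lower than Low Control by 1.32 (SE 0.38, adjusted p = 0.494, limma), with means of 12.1% ± 4.90 and 25.6% ± 11.5. At chr17:35644177 (IL2), the same contrast gave -0.96 (SE 0.29, adjusted p = 0.503, limma). At chr27:35839193, the SFRP1 CpG with the discordant partner, High ×5 was higher than Low Control by 1.10 (SE 0.37, adjusted p = 0.561, limma). Among 12 genes of the methionine-folate cycle and DNA methylation machinery, among them DNMT1, MAT2A, MTR and TET1, none had an assigned CpG. Symbols came only from CpGs listed in the study's supplementary tables, so a gene without a listed CpG could not be assigned any. The lack of assigned CpGs for these 12 genes and for RAC1 thus does not show whether a tested CpG lay near them. Of the tested CpGs, 79.9% were assigned to a gene.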

How the data were processed

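DNA of 18 libraries was measured by reduced representation bisulfite sequencing, in which restriction fragments rich in CpG are treated with bisulfite and sequenced. Per the study's methods and the submitters' processing notes, the authors used cutadapt for trimming, FastQC 0.11.8 and MultiQC 1.9 for quality control, and Bismark 0.22.3 for mapping to bosTau8 and for the methylation calls. They deposited log2 values, 1 M-value per CpG position and library, each the log2 of methylated over unmethylated reads, where an offset was added. The offset is not given in the sources used here. It pulls values toward 0, and more so at few reads, and the depth per library and CpG is unknown from these values. Percent levels were obtained here from those M-values, so they carry the same offset.

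All 31500 CpGs were fitted in R 4.3.3 using two-sided moderated tests of limma 3.58.1, with 1 mean for each of 6 treatments, 12 residual and 4.11 prior degrees of freedom. Contrast 6 in the study's methods repeats Low ×5 vs. Low Control and was read as Low ×5 vs. Low ×2.5. Only the rows of low-methylated CpGs are printed. The fit was tested on simulated data. Plots came from matplotlib 3.10.9, and tables from pandas 2.3.3 and numpy 2.4.6 under Python 3.11.15.

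Gene symbols came from the positions listed in the study's supplementary tables (2939 CpGs), also for CpGs lying between listed CpGs of 1 gene. Of 365 symbols, 363 were found in the RefSeq gene table. No genome of bosTau8 was used here, so no sequence is printed. The members and lists were chosen with earlier results of these data known. Named were the low-methylated CpG with the smallest p-value in each direction of each contrast, the 5 with the smallest F-test p-value, the 1 with the smallest p-value in each interaction, the CpGs at the bounds, the 5 regions with the most members, the 3 longest runs and the 5 clusters with the smallest p-value. Alternatives were robust trended eBayes, a replicate block, leaving out each replicate number, other scalings, fractions, the 6 libraries of a contrast, membership by the median, and other distances and cluster rules.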

Additional observations from a re-analysis of the deposited data

Results flagged for a closer look

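For 6 of the named low-methylated CpGs the difference between supplemented and Control cells differed between High and Low glucose in the interaction test at an unadjusted p-value under 0.01, with values on the log2 scale as High minus Low and none below an adjusted p-value of 0.05 in limma. At chr13:886583 the interaction was 1.48 (SE 0.33, adjusted p = 0.423, limma) at ×2.5 and 1.15 (SE 0.33, adjusted p = 0.278, limma) at ×5, and without the 4 libraries of narrowest M-values the former was 1.19 (unadjusted p = 0.0165, limma). At chr15:82597348 (SELENOH) it was 1.72 (SE 0.41, adjusted p = 0.423, limma) at ×2.5 and 1.57 (SE 0.41, adjusted p = 0.253, limma) at ×5, where Low Control replicates 2 and 3 stood apart. At chr6:92540907 (MIR2887-2) it was 1.71 (SE 0.49, adjusted p = 0.485, limma) and 2.0 (SE 0.49, adjusted p = 0.229, limma). At ×2.5 alone, it was 2.28 (SE 0.61, adjusted p = 0.456, limma) at chr3:8110823 (CFAP126), 1.59 (SE 0.48, adjusted p = 0.489, limma) at chr28:39345370 (GHITM) and -1.12 (SE 0.34, adjusted p = 0.503, limma) at chr7:71952567 (CLINT1). The CLINT1 CpG was the only 1 of the 6 with a negative interaction. At ×5 its interaction was -0.96 (SE 0.34, adjusted p = 0.381, limma), that of GHITM 1.11 (SE 0.48, adjusted p = 0.484, limma) and that of CFAP126 0.18 (SE 0.61, adjusted p = 0.957, limma). The CpGs at chr13:886583 and chr6:92540907 were named by the smallest p-value of an interaction and the other 4 by that of a contrast or the F-test. Those tests share libraries with the interactions, so these interactions are drawn from values that served for naming and are a description. Over all CpGs, 1.85% were called in the interaction at ×2.5 and 2.79% at ×5. The ×2.5 and ×5 values share the Control libraries. For chr13:886583, chr6:92540907 and GHITM, some treatment means lay below the lower bound of the class, as given above.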

How the results depend on the processing

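At an adjusted p-value under 0.05, all of the counts of low-methylated CpGs and clusters were 0 in limma. With only the 6 libraries of a contrast fitted, 8 CpGs were called for High ×5 vs. High ×2.5, 22 for Low ×2.5 vs. Low Control and 14 for High ×5 vs. Low Control. Libraries centred on their median gave 82 for Low ×5 vs. Low Control, 69 for Low ×2.5 vs. Low Control, 31 for High ×5 vs. Low ×5, 83 for the interaction at ×5 and 23 clusters. Libraries scaled to an equal SD gave 23 for Low ×5 vs. Low Control and 25 for the interaction at ×5. Clusters of at least 5 CpGs gave 8 called. Without the 4 libraries of narrowest M-values, chosen after seeing the data, the counts were 25 for High ×5 vs. High Control, 17 for Low ×5 vs. Low Control, 18 for Low ×2.5 vs. Low Control, 17 for Low ×5 vs. Low ×2.5, 27 for High ×5 vs. Low ×5, 27 for High Control vs. Low Control, 21 and 20 for the interactions at ×2.5 and ×5, and 5 clusters. Leaving out 1 replicate number of every treatment gave 18 to 31 for High ×5 vs. High Control, 16 to 57 for Low ×5 vs. Low Control, 20 to 54 for Low ×2.5 vs. Low Control, 6 to 7 for Low ×5 vs. Low ×2.5, 11 to 28 for High ×5 vs. Low ×5, 16 to 51 for High Control vs. Low Control, 11 to 52 and 13 to 38 for the interactions at ×2.5 and ×5, and 5 to 19 clusters. The causes were not tested, other than that fits with fewer libraries have fewer degrees of freedom. No named difference reversed its direction under any setting. Of 27 named results, 11 lost the call without replicate 1, 9 without replicate 2 and 14 without replicate 3, 9 without the 4 libraries of narrowest M-values, 3 with centred libraries and 1 with levels as fractions. Of 20 named contrasts, 7 lost it when only the 6 libraries were fitted. None lost it with robust eBayes, equal SD or quantile normalization. The level within 50 bp and within 500 bp of a low-methylated CpG was 41.4 and 57.9%. Another low-methylated position, the other strand included, lay within these distances for 62.5 and 72.4%. Other settings kept the counts within 1.5 times.

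Replicate numbers were not found to pair the libraries. Deviations of same-numbered libraries from their treatment means correlated between -0.106 and 0.115, with 1 of 45 pairs over 0.1. With the replicate number as a block the counts were 19 for High ×5 vs. High Control, 25 for High ×5 vs. High ×2.5 and 19 for High ×2.5 vs. High Control, and 41, 32 and 9 for Low ×5 vs. Low Control, Low ×2.5 vs. Low Control and Low ×5 vs. Low ×2.5. They were 19, 24, 46 and 45 for High ×5 vs. Low ×5, High ×2.5 vs. Low ×2.5, High Control vs. Low Control and High ×5 vs. Low Control, 45 and 35 for the interactions, 24 for the F-test and 13 clusters. No named call was lost under the block.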
